A study of Mus musculus with 11 samples.

Results

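The miR-23/27/24 miRNAs of mouse embryonic stem (ES) cells were taken by hairpin name. All rows for miR-23a, miR-23b, miR-24-1, miR-24-2, miR-27a and miR-27b were kept and miR-3074 was left out, which gave 10 of the 592 mature miRNAs in the table. Of these, 4 came from the a cluster alone (miR-23a-3p, miR-27a-5p, miR-27a-3p and miR-24-2-5p), 5 from the b cluster alone (miR-24-1-5p, miR-27b-3p, miR-27b-5p, miR-23b-3p and miR-23b-5p) and 1, miR-24-3p, from both. The other arm of miR-23a, miR-23a-5p, has no row.

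The study asked whether the loss of Trim71, an RNA-binding TRIM-NHL protein and presumed ubiquitin ligase, alters the miRNAs of ES cells. Small RNA was sequenced from 11 cultures of male C57BL/6 ES cells that carry floxed Trim71 and a tamoxifen-inducible Cre at Rosa26, grown with serum and LIF and sorted for SSEA-1. Trim-/- cells had received 4-hydroxytamoxifen, by the labels at 500 nM for 2 days and then at least 7 days of further culture (the methods of the study give a lower dose and a shorter time after it). Trimfl/fl cells are the same cells without deletion, treated with the solvent DMSO by the methods. A tamoxifen-treated line without floxed alleles was not analysed here, so that an effect of the drug or of Cre and one of the deletion cannot be told apart. The labels join 1 Trim-/- and 1 Trimfl/fl library of the same clone by a day number, clone 1 on days 1, 5 and 6 and clone E3 on days 3 and 4. A further Trimfl/fl library of clone E3, of day 2, has no partner, and its value equalled the mean of the other Trimfl/fl libraries to within 0.1% for all 10 members, so it was left out. The replicates are therefore culture days of 2 clones, and p-values measure the spread between those days. Trim71 mRNA is not part of a miRNA table, so that the deletion could not be checked in these libraries.

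MicroRNAs are cut from hairpins, and each hairpin can give a mature miRNA from its 5′ arm (5p) and one from its 3′ arm (3p). Bases 2 to 8, the seed, pair with target mRNAs. miR-23, miR-27 and miR-24 lie side by side in a pair of paralogous clusters, each transcribed as a unit, and have been studied in blood and endothelial cells, in muscle and fat, and in cells leaving the pluripotent state. Myc represses the miR-23 genes in other cell types.

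The mature sequences of the members are shown with the seed in capitals, 5′ to 3′, because the likeness of the a and b copies limits how well their reads can be told apart. They come from RefSeq on GRCm38.p6, the assembly of the mm10 build used by the authors, and 9 of the 10 members had one there. Only miR-23b-3p did not.
miR-23a-3p: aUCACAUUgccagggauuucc
miR-27a-3p: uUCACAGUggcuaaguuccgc
miR-27b-3p: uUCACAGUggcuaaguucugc
miR-27a-5p: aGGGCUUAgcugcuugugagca
miR-27b-5p: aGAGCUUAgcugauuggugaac
miR-24-3p: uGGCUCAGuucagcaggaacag
miR-24-2-5p: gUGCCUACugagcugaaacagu
miR-24-1-5p: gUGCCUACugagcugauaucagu
miR-23b-5p: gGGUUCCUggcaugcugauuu

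miR-27a-3p and miR-27b-3p differ at 1 of 21 positions, C19U when counted from 1 at the 5′ end of miR-27a-3p, and share the seed. miR-24-2-5p and miR-24-1-5p share their seed too and differ at 5 of the 22 positions compared, all of them behind it. miR-27a-5p and miR-27b-5p differ at 8 of 22 positions, 1 of them in the seed (G3A). The mature miR-24-3p is the same from both loci, so that its value cannot be divided between the clusters. Reads were aligned with the default settings of Bowtie2, which report a single alignment per read, and how the later counting step treated reads that match several hairpins is not given in the sources used here. The value of miR-27a-3p in particular could hold reads of its far more abundant paralogue. No other miRNA of the table with a sequence in RefSeq shares a seed with a member.

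The a cluster spans 404 bases of chromosome 8 (84208518 to 84208921, plus strand, GRCm38). In the order of transcription it holds Mir23a (84208518 to 84208592), Mir27a (84208672 to 84208758) and Mir24-2 (84208815 to 84208921). Apart from miRNA genes, no GENCODE gene overlaps Mir23a or Mir27a, and Mir24-2 overlaps an exon of the lincRNA Gm26532. The b cluster spans 792 bases of chromosome 13 (63300484 to 63301275, plus strand). Its hairpins Mir23b (63300484 to 63300557), Mir27b (63300712 to 63300784) and Mir24-1 (63301208 to 63301275) lie in the protein-coding gene 2010111I01Rik, Mir23b in an intron and the others over annotated exons, and in an intron of Fancc on the opposite strand. The opposite strand of the miR-24 hairpins encodes miR-3074, whose mature products overlap miR-24-2-5p and miR-24-3p by 20 bases. Whether counting used the strand is not given, so that reads of miR-24 and miR-3074 cannot be told apart with certainty.

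The deposited values are normalized read counts that the authors had also corrected for batch. After this correction the Trim-/- and Trimfl/fl values of a day add up to the same sum on every day, to within 0.1%, for all 10 members. Each day therefore gives 1 free value, the same-day difference, and the spread of the 2 groups is equal by construction. It also follows that the groups of a miRNA fail to overlap whenever its difference has the same sign on all days. No member was at the floor of 1 that the authors set, and member values ran from 7.23 to 36884. The summed values of a library ran from 3751520 to 5551710 in Trim-/- and from 2742670 to 4332530 in Trimfl/fl, and were higher in Trim-/- on 4 of 5 days, by 1.02 on the log2 scale on day 5. The number of reads behind them is unknown. The 27 ES cell miRNAs of the miR-290 to miR-295 and miR-302 and miR-367 clusters were all in the table and made up 55.5 to 59.7% of the summed values in Trim-/- and 56.8 to 59.8% in Trimfl/fl.

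The 3p arm of miR-27 was the highest row of either cluster alone. In Trimfl/fl cells the highest was miR-27b-3p (25407 ± 6646, SD, n = 5), rank 16 of the 592 miRNAs, followed by miR-24-3p (5392 ± 1062, rank 56) and miR-27a-3p (1688 ± 254, rank 106). Then came miR-23a-3p (511 ± 156), miR-24-2-5p (442 ± 69.2), miR-27a-5p (394 ± 214.4) and miR-23b-3p (215 ± 45.3). The lowest were miR-27b-5p (102 ± 26.8), miR-24-1-5p (62.0 ± 12.2) and miR-23b-5p (23.1 ± 10.3, rank 489). miR-23a-3p, miR-24-2-5p and miR-27a-5p were not separated beyond their spread, since miR-23a-3p was above miR-24-2-5p in 3 of the 5 Trimfl/fl libraries and miR-24-2-5p above miR-27a-5p in 2. miR-27a-5p was above miR-23b-3p in 4 of 5, and every other neighbour in this order kept its place in all 5 Trimfl/fl and all 5 Trim-/- libraries. The level of 7 of the 10 members lay above the median miRNA (137.3). These are read counts of molecules of like length, on one scale, but ligation and matching can favour some sequences, so that levels of different miRNAs are compared only as listed.

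Although each cluster is transcribed as a unit, its mature miRNAs differed widely in level. In the b cluster miR-27b-3p was 118-fold above miR-23b-3p in Trimfl/fl cells, whereas in the a cluster miR-27a-3p was 3.30-fold above miR-23a-3p. The b copy was the higher of the miR-27 3p pair, at 15.1-fold the a copy. For the other paralogues the a copy was higher in Trimfl/fl means, by 2.38-fold for miR-23-3p, 3.88-fold for miR-27-5p and 7.12-fold for miR-24-5p. It was above the b copy in all 10 libraries for miR-23-3p and miR-24-5p and in 9 for miR-27-5p. The exception was Trimfl/fl of day 5, with miR-27a-5p at 25.8 and miR-27b-5p at 102. The 3p arm exceeded the 5p arm in all 10 libraries for miR-27b, miR-23b and miR-27a, by 250-fold, 9.30-fold and 4.28-fold in Trimfl/fl means. miR-24-3p was 86.9-fold above miR-24-1-5p and 12.2-fold above miR-24-2-5p, but it holds the product of both hairpins, so that the excess at either of them is unknown.

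**Figure D1:**
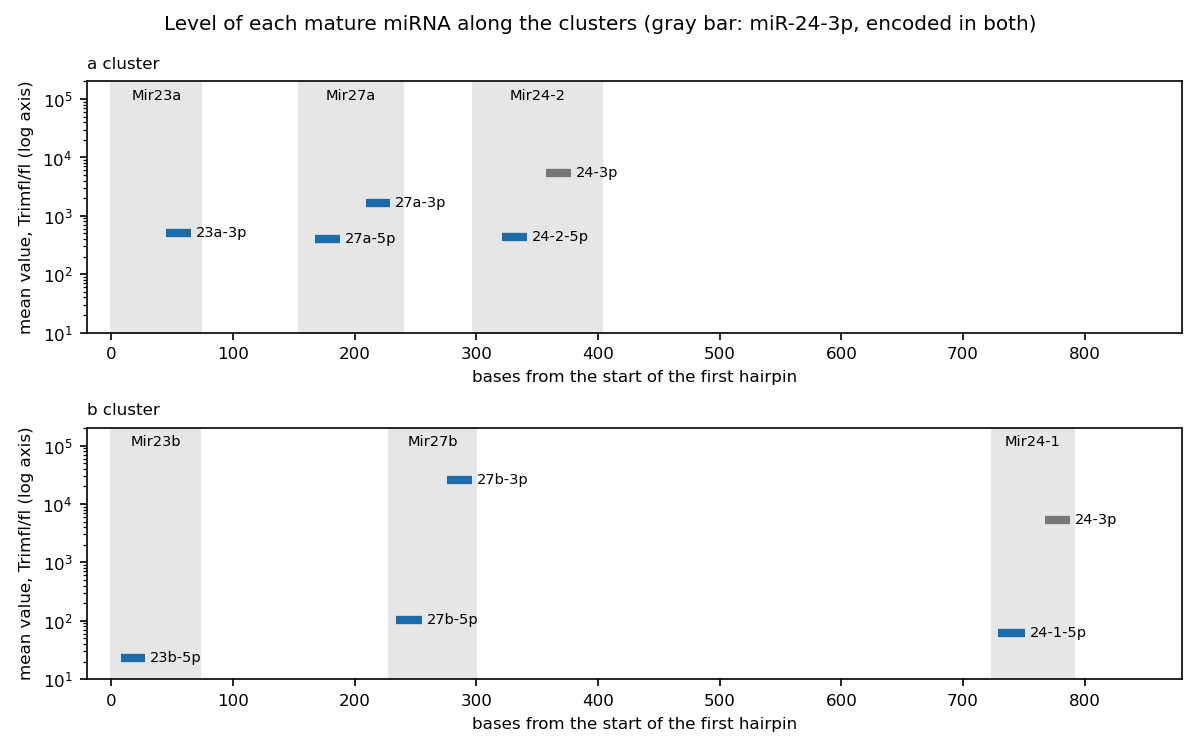
Mean normalized read count in the 5 paired Trimfl/fl libraries (log axis) of each member against its distance in bases from the start of the first hairpin of its cluster; shaded blocks are hairpins and bars are mature miRNAs, gray for miR-24-3p, which both clusters encode. The bar of miR-27b-3p, at 25407, stands highest, and miR-23b-3p is not drawn because it had no position in RefSeq.

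The comparison of the genotypes asked whether these miRNAs differ between Trim-/- and Trimfl/fl cells of the same day. In the main fit, by limma on genotype and day, none of the 10 members passed the thresholds that the study had used, in either direction. These were a change of more than 1.5-fold together with an unadjusted p under 0.05. In 7 alternative fits 1 or 2 members passed them as higher in Trim-/-, as set out at the end. Among all 592 miRNAs, 5 (0.845%) passed them in the main fit as higher in Trim-/- and 27 (4.56%) as lower. In the same fit no member and 32 miRNAs of all (5.41%) had an unadjusted p under 0.05 by limma, and 0 of all (0%) had an adjusted p under 0.05. In bulk RNA of a culture, fewer cells with a miRNA and less of it per cell cannot be told apart. The smallest adjusted p of any miRNA was 0.607 by limma. 2 of the 10 members, miR-27a-3p and miR-24-2-5p, were higher in Trim-/- on all 5 days, as were 31 of all miRNAs (5.24%). The same members and the same number of all miRNAs (31, 5.24%) had every Trim-/- value above every Trimfl/fl value. No member and 37 of all miRNAs (6.25%) were lower on all 5 days.

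By cluster, the 4 members of the a cluster all had fitted log2 fold changes above 0, with a median of 0.59, and 3 of the 5 members of the b cluster did, with a median of 0.05. Of all 592 miRNAs, 303 had fitted values above 0 and 289 below. The median over all 10 members was 0.33 and that over all 592 miRNAs 0.03. Division by the library total moved the median of all miRNAs to -0.24. Relative to that median the fold changes of the members moved by less than 0.01. This is so by construction, because the division shifts the log2 values of all miRNAs of a library alike, apart from the added 1. These medians are descriptions of few members with wide intervals. The fitted fold change throughout is the difference of log2(value + 1) between Trim-/- and Trimfl/fl within days, and it is given with its 95% interval.

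**Figure D2:**
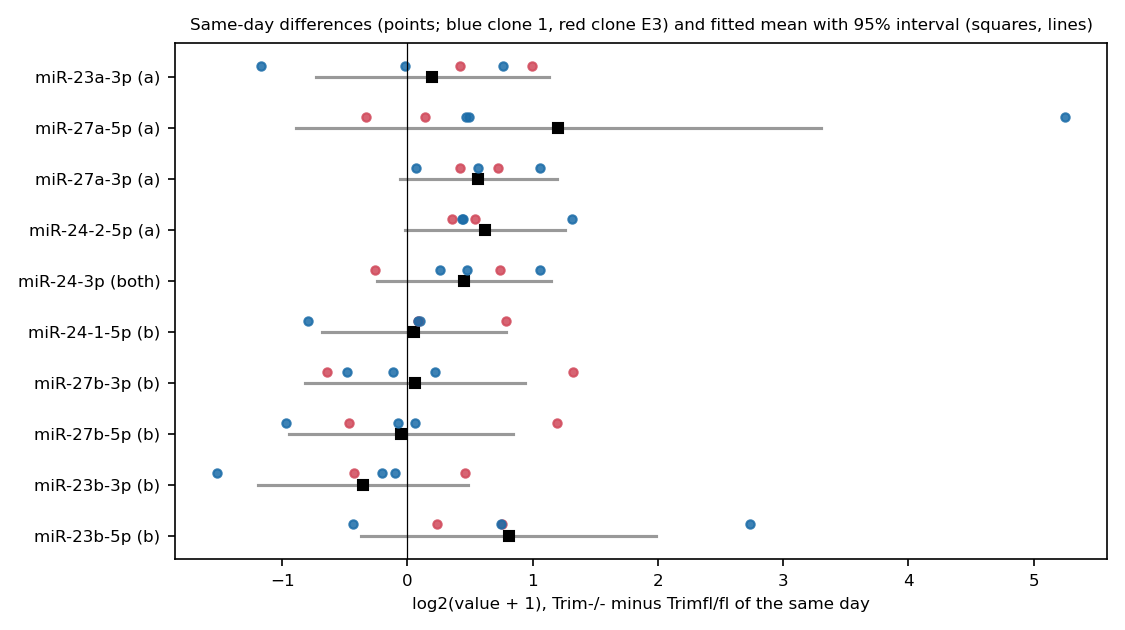
Difference of log2(value + 1) between Trim-/- and Trimfl/fl of the same day for each member, with 1 point per day (blue clone 1, red clone E3) and, as squares with lines, the limma estimate and its 95% interval. All 10 intervals include 0, miR-27a-3p and miR-24-2-5p have all 5 points above 0, and the point of miR-27a-5p at 5.25 is that of day 5.

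miR-24-2-5p, the 5p arm of the a cluster copy of miR-24, had the smallest p of the members. Its Trim-/- values on days 1, 3, 4, 5 and 6 were 643, 661, 626, 642 and 795 normalized read counts, and the Trimfl/fl values were 472, 454, 489, 474 and 319.9. Every Trim-/- library lay above every Trimfl/fl library, and the pair of day 6 stood farthest apart. The means were 673 ± 69.2 and 442 ± 69.2 (SD, n = 5 each). This is a log2 fold change of 0.62 (-0.02 to 1.26), with an unadjusted p of 0.0560 and an adjusted p of 0.607 by limma. The exact permutation of genotypes within days gave a two-sided p of 0.0625, the smallest that 5 pairs allow. Without day 6 the log2 fold change was 0.44. It was past the thresholds of the study in 4 fits that keep the day as a factor, with a pseudocount of 10, untransformed values, limma with a mean-variance trend or only miRNAs with a mean of at least 100, at unadjusted p-values of 0.0431, 0.0135, 0.0447 and 0.0378 by limma, and adjusted p-values of 0.574 to 0.658. The fit without the replicate block gave an unadjusted p of 0.00265 and an adjusted p of 0.0923 by limma, past the thresholds of the study, but it does not account for the day means that had been removed from the values. After division by the library total day 5 was at -0.58, with the median of all miRNAs at -1.002 on that day, and the other 4 days were above 0.

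miR-27a-3p, the main product of the miR-27a hairpin, measured 2493, 2390.5, 2601, 2821 and 2135 in Trim-/- on days 1, 3, 4, 5 and 6. In Trimfl/fl of the same days it measured 1684, 1786, 1575, 1355 and 2041. The groups did not overlap, but on day 6 they were close, at 0.07 on the log2 scale, while on day 5 they were 1.06 apart. The means were 2488 ± 254 and 1688 ± 254 (SD, n = 5), and the fitted log2 difference was 0.57 (-0.06 to 1.19). Its unadjusted p was 0.0692 and its adjusted p 0.607 by limma, and the exact permutation p was 0.0625. Among fits that keep the day, the unadjusted limma p was 0.0165 on untransformed values and 0.0481 with a mean-variance trend. It was 0.0465 with a mean of at least 100 and 0.0527 with a pseudocount of 10. The adjusted p-values of these fits were 0.574 to 0.658 by limma, and their log2 fold changes of 0.56 to 0.57 stayed under the threshold. Without the replicate block the limma p was 0.00331, with a fold change of 1.48 that stayed under it too. Divided by the library total, day 6 was at -0.14, with the median of all miRNAs at -0.19, and the other 4 days were above 0.

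miR-24-3p, the product of both clusters, measured 6941, 7961, 5806, 8607 and 7409.9 in Trim-/- on days 1, 3, 4, 5 and 6. The Trimfl/fl values were 5795, 4776, 6931, 4129.8 and 5327. It was higher in Trim-/- on 4 days and lower on day 4, and the groups overlapped. The log2 fold change was 0.46 (-0.24 to 1.15), with a limma p of 0.160 and an exact permutation p of 0.125. Because the loci cannot be separated in this row, the direction cannot be assigned to either cluster.

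miR-27a-5p, the minor arm of miR-27a, had the widest interval. Its values were 605, 545, 461, 1015 and 609 in Trim-/- and 436, 496, 580.3, 25.8 and 432 in Trimfl/fl on the same days. On day 5 the Trimfl/fl value was far below the rest and, as the mirror of it, the Trim-/- value far above. On the other 4 days the groups overlapped. Its log2 fold change of 1.20 (-0.89 to 3.30) dropped to 0.19 without day 5. The exact permutation p was 0.1875 and the adjusted p by limma 0.645.

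miR-23a-3p, the first miRNA of the a cluster, had same-day differences on both sides of 0. It measured 692, 628, 731, 337 and 546 in Trim-/-. The Trimfl/fl values were 406, 469.5, 366, 761 and 552. Days 1, 3 and 4 were higher in Trim-/-, day 5 was lower by more than any of those, and day 6 was level. The fitted value was 0.20 (-0.73 to 1.13; exact permutation p = 0.6875, adjusted p = 0.832 by limma), or -0.07 after division by the library total.

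In the b cluster, miR-27b-3p, the most abundant member, had means of 26243 ± 6646 in Trim-/- and 25407 ± 6646 in Trimfl/fl. The values by day were 24826, 20184, 36884, 27799 and 21522 in Trim-/- and 26824, 31467, 14767, 23851 and 30128 in Trimfl/fl. On day 4, of clone E3, Trim-/- was higher by 1.32 on the log2 scale, day 3 of the same clone was at -0.64, and the groups overlapped. Over the 5 days the log2 fold change was 0.06 (-0.81 to 0.94; exact permutation p = 0.875, adjusted p = 0.955 by limma), and it was -0.25 without day 4 and -0.21 after division by the library total. The interval leaves room for a difference of over 1.5-fold in either direction.

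miR-27b-5p, its minor arm, measured 67.1, 83.6, 139, 97.1 and 102 in Trim-/- and 132, 116, 60.3, 102 and 97.6 in Trimfl/fl. As for miR-27b-3p, day 4 was higher and day 3 lower in Trim-/-, and the groups overlapped. Its fitted log2 fold change was -0.05 (-0.94 to 0.84). For miR-24-1-5p, the 5p arm of the b cluster copy of miR-24, the values were 65.4, 65.2, 80.3, 46.0 and 65.1 against 61.0, 61.2, 46.1, 80.4 and 61.3. Days 1, 3 and 6 differed by less than 0.1 on the log2 scale, and days 4 and 5 lay on opposite sides. Its log2 fold change was 0.05 (-0.68 to 0.79).

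The arms of miR-23b had fitted values on opposite sides of 0. miR-23b-3p measured 186, 165, 224, 99.3 and 179 in Trim-/- and 199.5, 220.9, 162, 286 and 206 in Trimfl/fl. It was lower in Trim-/- on 4 of 5 days, with day 4 as the exception, and the groups overlapped. It had a log2 fold change of -0.36 (-1.19 to 0.48; exact permutation p = 0.375, adjusted p = 0.680 by limma), and one of -0.066 without day 5. miR-23b-5p, the least abundant member, measured 53.9, 33.1, 38.6, 25.8 and 38.5 in Trim-/- and 7.23, 28.0, 22.5, 35.3 and 22.6 in Trimfl/fl. It was higher on all days but day 5, and day 1 stood apart at 2.74 on the log2 scale. Fitted over the days, it came to 0.81 (-0.37 to 1.99; exact permutation p = 0.1875, adjusted p = 0.635 by limma), and to 0.33 without day 1.

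**Figure D3:**
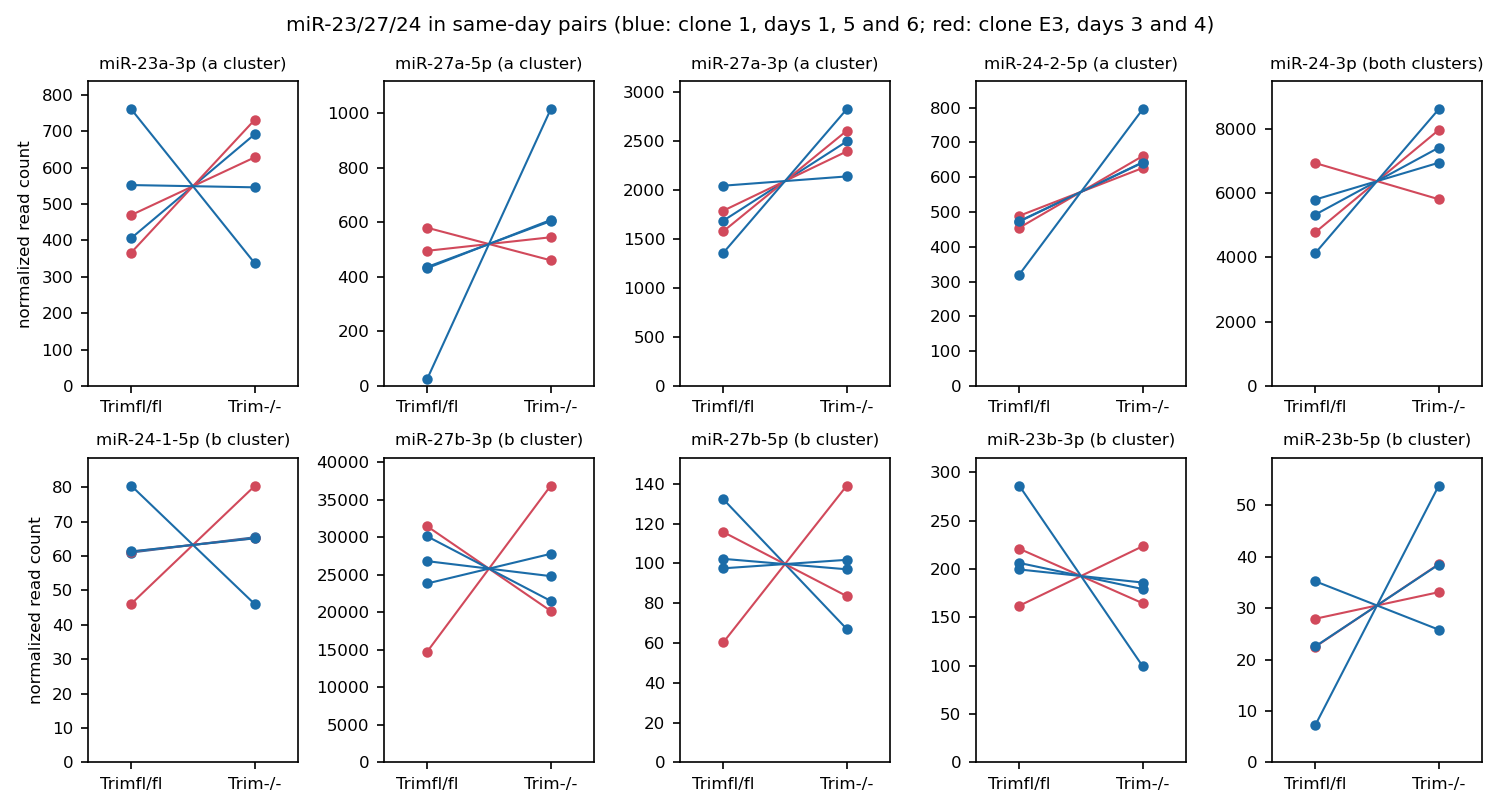
Normalized read count of each member in Trimfl/fl (left) and Trim-/- (right), with lines joining the libraries of a day (blue clone 1, red clone E3) on axes that start at 0. In each panel the lines cross at a single height because same-day sums are equal; all 5 lines go up for miR-27a-3p and miR-24-2-5p, and the single low Trimfl/fl points of miR-27a-5p and miR-23b-5p are at 25.8 and 7.23.

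Added up, the a cluster members (miR-24-3p left aside) came to 4085 to 4815 normalized read counts in Trim-/- and 2615 to 3345 in Trimfl/fl. The sum was higher in Trim-/- on all 5 days, by 0.29 to 0.88 on the log2 scale. miR-27a-3p makes up most of it. As a share of the library it was 0.0867 to 0.118% in Trim-/- and 0.0695 to 0.0953% in Trimfl/fl, lower in Trim-/- on day 5 and higher on the other 4 days. The b cluster members came to 20530 to 37365 against 15058 to 31893, higher in Trim-/- on 2 of 5 days, with differences from -0.64 on day 3 to 1.31 on day 4. As a share of the library the b cluster was 0.487 to 0.996% in Trim-/- and 0.348 to 0.888% in Trimfl/fl, higher in Trim-/- on day 4 and lower on the other 4 days. The number of days on which a cluster kept its direction thus depends on the scaling, which shifts all miRNAs of a library alike. After division by the library total the median of all miRNAs was at -1.002 on day 5. Divided by the library median, miR-27a-3p and miR-24-2-5p were higher in Trim-/- on 5 days, miR-27a-5p on 4 and miR-23a-3p on 3. Whether the clusters differ is tested by the ratios of their paralogues.

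A ratio of paralogues in the same library does not change when the deposited values of that library are divided by a common factor, apart from the added 1. The scaling by the authors came before the batch correction, so that its effect need not cancel in a ratio. A difference in the ratio between genotypes compares the row of the a copy with that of the b copy. The batch correction acted on each miRNA by itself and is not removed by a ratio, and reads of the near-identical 3p copies of miR-27, and of those of miR-23, which are also known to be near-identical, may be shared between their rows. Of the 4 ratios, that of miR-23a-3p to miR-23b-3p was higher in Trim-/- on all 5 days. Its differences on days 1, 3, 4, 5 and 6 were 0.87, 0.84, 0.53, 0.35 and 0.19 on the log2 scale. The mean difference was 0.55 (SD 0.30, n = 5, 95% interval 0.18 to 0.93). The a copy was 78.8, 79.2, 76.6, 77.2 and 75.3% of the miR-23-3p values in Trim-/-. In Trimfl/fl it was 67.1, 68.0, 69.3, 72.7 and 72.8%. The groups did not overlap, and both clones went the same way (0.47 in clone 1, 0.69 in clone E3). The exact permutation p was 0.0625, the smallest possible, and 0.25 after adjustment over the 4 ratios. With 5 pairs this test cannot reach 0.05 whatever the size of the difference. Neither miRNA of this ratio kept a direction on all days by itself. The paralogues moved together from day to day, both with their lowest Trim-/- value on day 5 and their highest on day 4, and the ratio takes that shared part out.

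The other 3 ratios were higher in Trim-/- on 4 of 5 days, and for all 3 the exception was day 4 of clone E3. For miR-27a-3p to miR-27b-3p the mean difference was 0.51 (-0.30 to 1.31), and 0.78 without day 4, with an exact permutation p of 0.1875. The a copy was 6.59 to 10.6% of miR-27-3p in Trim-/- and 5.37 to 9.64% in Trimfl/fl, and without day 4 the Trim-/- values started at 9.03% and the Trimfl/fl values ended at 6.34%. For miR-24-2-5p to miR-24-1-5p it was 0.56 (-0.30 to 1.43), and 0.81 without day 4, with an exact permutation p of 0.1875. The a copy was 88.6 to 93.3% of miR-24-5p in Trim-/- and 83.9 to 91.4% in Trimfl/fl. By clone, the difference was 0.93 in clone 1 and 0.0095 in clone E3 for miR-24-5p, and 0.69 and 0.23 for miR-27-3p. For miR-27a-5p to miR-27b-5p the mean difference was 1.25 (-1.87 to 4.38), with an exact permutation p of 0.375. This difference was 1.95 without day 4 and 0.24 without day 5, and by clone 2.40 in clone 1 and -0.46 in clone E3. Adjusted over the 4 ratios, these exact permutation p-values were 0.25, 0.25 and 0.375. Each day was left out in turn, and day 4 is singled out here after its values were seen.

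**Figure D4:**
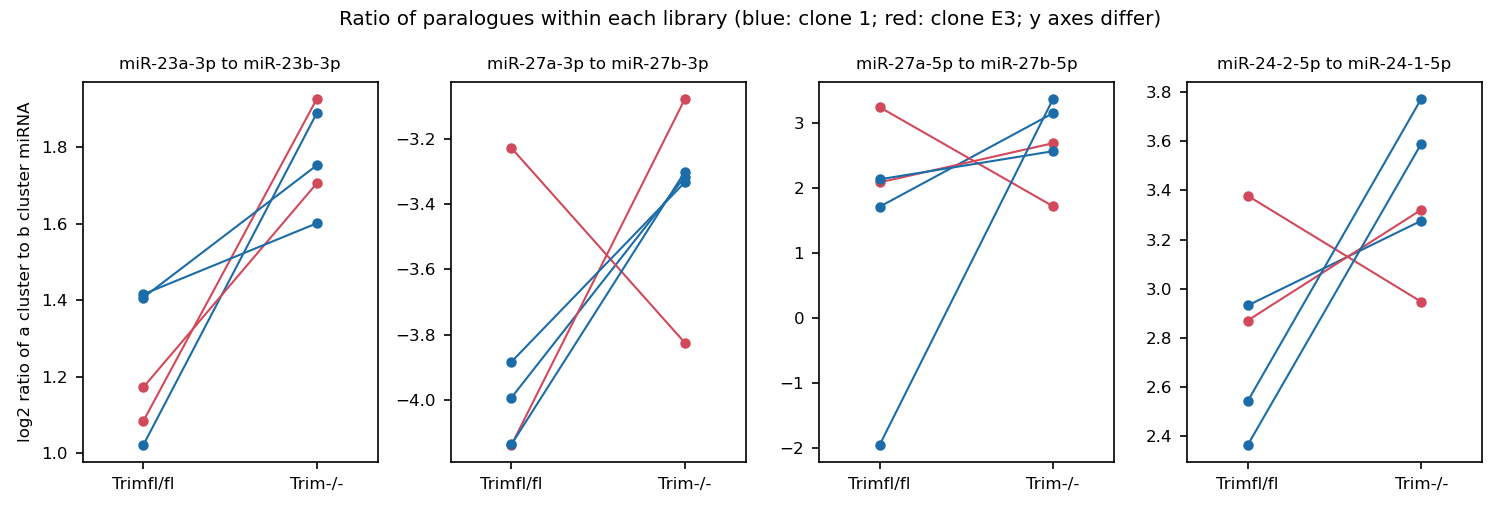
Log2 ratio of the a cluster to the b cluster miRNA in each library, Trimfl/fl left and Trim-/- right, with lines joining the libraries of a day (blue clone 1, red clone E3); the y axes differ between panels and do not start at 0. All 5 lines go up for miR-23a-3p to miR-23b-3p, and in the other panels 1 line of clone E3, that of day 4, goes down.

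By arm, the 5 rows of 5p arms had a median log2 fold change of 0.62 and the 5 rows of 3p arms one of 0.20. The test of the arms is again the ratio inside a library. For miR-23b the ratio of 5p to 3p was higher in Trim-/- on all 5 days, by 2.84, 0.66, 0.29, 1.08 and 0.95 on days 1, 3, 4, 5 and 6. The mean difference was 1.16 (-0.06 to 2.39), 0.74 without day 1, 1.62 in clone 1 and 0.48 in clone E3. The 5p arm was 14.7 to 22.5% of the miR-23b values in Trim-/- and 3.50 to 12.2% in Trimfl/fl, without overlap. The exact permutation p was 0.0625, and 0.3125 after adjustment over the 5 arm ratios. This rests on miR-23b-5p values between 7.23 and 53.9, the lowest of the members.

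The remaining arm ratios had no common direction. That of miR-27a-5p to miR-27a-3p differed by 0.64 (-1.92 to 3.19, higher on 2 of 5 days), that of miR-27b-5p to miR-27b-3p by -0.11 (-0.77 to 0.54, higher on 2 of 5 days). miR-24-1-5p to miR-24-3p differed by -0.40 (-1.69 to 0.89, higher on 1 of 5 days, and -0.039 without day 5) and miR-24-2-5p to miR-24-3p by 0.16 (-0.57 to 0.90, higher on 3 of 5 days). Their exact permutation p-values lay between 0.5 and 0.75, and were 0.75 after adjustment over the 5 arm ratios.

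miRNAs of other cell types were looked at in the same libraries, since cells that differentiate in culture would bring their own, although sorting for SSEA-1 should remove most of them. Of 9 fibroblast miRNAs 8 were in the table (miR-214-3p was not), and their sum was 276235 to 831776 in Trim-/- and 13514 to 364596 in Trimfl/fl. The sum was higher in Trim-/- on 4 of 5 days, and none of the 8 passed the thresholds. miR-21a-5p, which is also made by many other cells, is most of that sum and was listed at the floor in 1 library, Trimfl/fl of day 5, the same library in which miR-27a-5p was lowest. Without miR-21a-5p, a choice made after seeing the values, the sums were 13589 to 35441 and 13513 to 35366, also higher in Trim-/- on 4 of 5 days with day 4 as the exception. That sum is nearly all miR-143-3p (26198 ± 8316 and 21522 ± 8316), while miR-199a-3p was higher on 1 of 5 days, miR-199a-5p and miR-145a-5p on 2, miR-221-3p on 3, and miR-199b-3p and miR-222-3p on 4. Of 6 neural miRNAs 4 were in the table (miR-137-3p and miR-219a-5p were not), with sums of 5577 to 8969 in Trim-/- and 3216 to 6608 in Trimfl/fl, higher on all days but day 4. None of these 4 passed the thresholds. The summed values of all miRNAs (-0.21 on the log2 scale) and of the ES cell miRNAs (-0.19) were also lower in Trim-/- on day 4 alone. The day 4 exception is shared with 3 of the paralogue ratios, and the part of other cells in the member values was not tested.

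Other miRNAs with a known tie to the clusters were taken as lists. Of 17 miRNAs that Myc represses in other cell types, all were in the table. Of these, 4 had a fitted log2 fold change above 0 and 13 below, against 303 and 289 of all 592 miRNAs. None of the 17 passed the thresholds, and their median was -0.22. By day their medians were -1.04, -0.05, 0.81, -0.78 and -0.58 on days 1, 3, 4, 5 and 6. Their sum was higher in Trim-/- on 3 of 5 days. The most abundant of the 17 were miR-26a-5p (29095 ± 2171 in Trim-/- and 25269 ± 2171 in Trimfl/fl, log2 fold change 0.20) and miR-22-3p (27519 ± 15737 and 24022 ± 15737, -0.04). Of 6 miRNAs said to promote the differentiation of mouse ES cells, 4 had fold changes above 0 and 1 passed the thresholds, miR-200c-3p at 0.65 (adjusted p = 0.607 by limma). The others were at 0.60 for miR-470-5p, 0.57 for miR-203-3p, 0.10 for miR-145a-5p, -0.26 for miR-296-5p and -2.46 for miR-134-5p, which had 1 value at the floor.

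The miRNAs whose 5 same-day differences were most like those of a member were found by the mean absolute difference on the log2 scale, over 5 days. For miR-24-3p they were miR-139-5p (0.18) and miR-130b-5p (0.19). For miR-27a-3p they were miR-293-5p (0.18), of the ES cell cluster of miR-290 to miR-295, and miR-450a-5p (0.19), both higher in Trim-/- on all 5 days. For miR-27b-3p they were miR-145a-5p (0.24) and miR-30b-3p (0.25), which also had their highest difference on day 4, at 1.27 and 1.69. The members themselves and miR-3074 were left out of this search. Because these miRNAs were chosen by their same-day differences, the shared signs and the shared height on day 4 follow from the choice.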

How the data were processed

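Small RNA libraries of 11 mES cell cultures were analysed. By the methods of the study they were made with a small RNA kit (the labels name an mRNA kit), and 50 bp reads were mapped to miRBase v20 with Bowtie2. The submitters' processing notes name CASAVA 1.8, Bowtie2 2.2.1, Partek 6.6, DESeq2 and mm10. What the authors deposited is a normalized signal, in read counts scaled with DESeq2 and then corrected for batch. They raised anything below 1 to 1 and dropped miRNAs with both group means below 10. The table holds no raw counts, so that depth is unknown and precision comes from the 5 pairs alone. Blank rows (9677) were dropped.

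The 5 same-day pairs (10 libraries) entered a limma fit (limma 3.58.1, R 4.3.3, eBayes with no trend) of log2(value + 1) on genotype and day, with Benjamini-Hochberg adjustment over all 592 miRNAs. The thresholds were a fold change over 1.5 with an unadjusted p under 0.05. The methods of the study name a one-way ANOVA, while the table of its results has a column for day by clone as well. The pairing comes from the day numbers of the labels. Across miRNAs, the departures of paired libraries from the means of their groups had correlations of -0.65 to -0.41, since the batch correction makes same-day sums equal. Members and ratios were tested by exact two-sided permutation within days (32 sign patterns). Intervals are 95% intervals, those of ratios from the 5 differences.

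Named are all rows of the 6 hairpins and the 2 miRNAs closest in pattern to each of miR-24-3p, miR-27a-3p and miR-27b-3p. From the lists, the 2 most abundant of the Myc list, all 6 for differentiation and the 8 fibroblast miRNAs of the table are named. Listed miRNAs without a row are named too, while the neural and ES cell miRNAs of the table are given as sums. The members and lists were chosen with earlier results of these data known. Alternatives were no replicate block, all 11 libraries, clone for day, each pair left out, each clone alone, division by library total or median, pseudocounts of 0.1 and 10, untransformed values, limma with trend and a mean of at least 100. Tables were made with Python 3.11.15, pandas 2.3.3, numpy 2.4.6 and scipy 1.17.1, and plots with matplotlib 3.10.9.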

Additional observations from a re-analysis of the deposited data

Results flagged for a closer look

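Among 20 groups of 5 libraries (10 members in 2 genotypes, in mirrored pairs because same-day sums are equal), 4 had a library far from the other 4 by Dixon's criterion (gap over range above 0.71), which chance gives in about 1 of 20 groups. They belong to 2 miRNAs. miR-27a-5p was at 1015 in Trim-/- and 25.8 in Trimfl/fl on day 5 (gap over range 0.73 in both), a single same-day difference seen from either side. miR-24-2-5p was at 795 in Trim-/- and 319.9 in Trimfl/fl on day 6 (0.80 in both). No test of the difference between the clones passed an adjusted p of 0.05 by limma for any member.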

How the results depend on the processing

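Depth is unknown, 5 differences per miRNA are all the data hold, and the smallest exact p they allow is 0.0625. Of 167 alternative fold changes of members 14 reversed, and of 81 alternative ratios 7 did; the cause was not tested. With a pair left out in turn, log2 fold changes ran from -0.00036 to 0.54 for miR-23a-3p, -0.13 to 0.27 for miR-24-1-5p, -0.25 to 0.24 for miR-27b-3p and -0.36 to 0.18 for miR-27b-5p (0.18 without day 1, 0.05 without day 3). In clone 1 alone miR-23a-3p was at -0.14, miR-24-1-5p at -0.20 and miR-27b-3p at -0.13. In clone E3 alone miR-27a-5p was at -0.10, miR-27b-5p at 0.36 and miR-23b-3p at 0.020. Divided by the library total they were -0.071 for miR-23a-3p, -0.21 for miR-24-1-5p and -0.21 for miR-27b-3p, a scaling that put the median of all miRNAs at -0.24.

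Ratios with a pair left out ran from -0.25 to 1.06 for miR-27a-5p to miR-27a-3p, -0.28 to 0.074 for miR-27b-5p to miR-27b-3p, -0.76 to -0.039 for miR-24-1-5p to miR-24-3p and -0.0058 to 0.36 for miR-24-2-5p to miR-24-3p. In clone E3 alone they were -0.46 for miR-27a-5p to miR-27b-5p, -0.67 for miR-27a-5p to miR-27a-3p, 0.024 for miR-27b-5p to miR-27b-3p and 0.20 for miR-24-1-5p to miR-24-3p. The ratios of miR-23a-3p to miR-23b-3p, miR-27a-3p to miR-27b-3p, miR-24-2-5p to miR-24-1-5p and miR-23b-5p to miR-23b-3p reversed in none of their 9 alternatives, but that of miR-24-2-5p to miR-24-1-5p was 0.0095 in clone E3 alone.

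Members past the thresholds as higher numbered 0, and 1, miR-24-2-5p, with no replicate block, clone for day, a pseudocount of 10, untransformed values, limma with trend or a mean of at least 100, and 2, miR-23b-5p being the other, with no replicate block and all 11 libraries. In that fit miR-27a-3p had an adjusted p of 0.0376 and miR-24-2-5p of 0.0318 by limma. The day 2 library that it adds equals the mean of the other Trimfl/fl libraries for all 10 members. It therefore brings no spread of its own, and these p-values are too small. How many of all miRNAs had an adjusted p under 0.05 in that fit was not counted. Such fits without the day do not count the removed day means as estimated. Over all miRNAs the 5 higher became 42 with no replicate block, 45 with all 11 libraries, 36 with clone for day, 14 in clone 1, 8 in clone E3, 2 by total, 9 by median, 8 at a pseudocount of 10, 9 untransformed and 4 to 23 with a pair left out (23 without day 4). The 27 lower became 59, 71 and 57 in the first 3 of these fits, 45 in clone 1, 48 by total, 10 with a mean of at least 100 and 11 to 44 with a pair left out (44 without day 4).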
